A study of Homo sapiens with 12 samples.

Results

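The noncoding snoRNA host genes are long noncoding RNA genes whose introns carry small nucleolar RNAs (snoRNAs). The 10 described here are GAS5, SNHG1, SNHG3, SNHG5, SNHG6, SNHG7, SNHG8, SNHG12, SNHG15 and SNHG16. They were chosen by name, with earlier results of these data known. Each of the 10 symbols matched 1 row among the 63677 genes of the count table. All 10 passed the filter on low counts, which kept 17092 genes, with between 241 and 9380 counts per sample.

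RNA was sequenced from Huh7 cells, an established human hepatocellular carcinoma line, in 4 groups of 3 samples. Untreated cells received medium only. The other groups were exposed for 6 h to graphene oxide (GO) at 400 µg/mL, to GO conjugated with the ginseng saponin Rg3 (GO-Rg3) at 400 µg/mL, or to GO-Rg3 loaded with the anthracycline doxorubicin (GO-Rg3-DOX) at 100 µg/mL. The GO-Rg3-DOX group differed from the GO-Rg3 group in dose as well as in drug, so these cannot be told apart, and cells given free DOX were not analysed here. The labels do not say that the 3 samples of a group were grown as separate cultures. The p-values set group differences against the spread between these samples, and that spread may be technical.

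After splicing of a host transcript, the excised introns are trimmed to snoRNAs. Box C/D snoRNAs guide 2′-O-methylation and box H/ACA snoRNAs guide pseudouridylation of ribosomal and other RNAs. The spliced host RNA is exported, its short reading frames are translated and end early, and the transcript is degraded by nonsense-mediated decay (NMD), the pathway that removes transcripts with premature stop codons. Many host genes belong to the class whose transcripts start with a run of pyrimidines, which they share with ribosomal protein genes. GAS5, the growth arrest-specific transcript, SNHG1, SNHG5, SNHG6 and SNHG16 carry box C/D snoRNAs. SNHG3, SNHG7, SNHG8 and SNHG15 carry box H/ACA snoRNAs, and SNHG12 carries both kinds.

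The start regions of 5 members are shown. SNHG7 and SNHG12, which fell with GO-Rg3-DOX, and SNHG5 and SNHG8, which did not pass the test, all have TATAA before the start, and SNHG1 was the only member above its untreated level on average. They are 60-base windows of the coding strand from RefSeq (GRCh38.p14), from 35 bases before to 25 bases after the annotated start. Capitals mark TATAA before the start and the unbroken run of C or T that begins at the start. The windows of SNHG7 (chr9:136728160-136728219), SNHG12 (chr1:28581849-28581908), SNHG5 (chr6:85678709-85678768) and SNHG1 (chr11:62855861-62855920) are on the minus strand and that of SNHG8 (chr4:118278727-118278786) is on the plus strand.
SNHG7: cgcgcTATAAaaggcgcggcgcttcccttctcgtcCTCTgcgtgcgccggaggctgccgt
SNHG12: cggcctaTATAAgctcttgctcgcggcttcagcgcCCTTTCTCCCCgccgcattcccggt
SNHG5: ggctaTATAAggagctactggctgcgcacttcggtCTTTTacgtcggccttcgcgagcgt
SNHG8: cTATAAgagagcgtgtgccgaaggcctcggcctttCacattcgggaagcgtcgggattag
SNHG1: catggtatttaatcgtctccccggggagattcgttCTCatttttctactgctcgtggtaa

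The RefSeq table held 8 of the 10 members. SNHG6 and SNHG15 had no entry. TATAA stood on the coding strand in the 35 bases before the start of SNHG5, SNHG7, SNHG8 and SNHG12, 4 of 8, against 4.14% of the 35116 promoters in the table (5.19% on either strand). A run of at least 4 C or T from the start was found in SNHG5, SNHG7 and SNHG12, against 7.19% of all promoters. The E-box CACGTG was searched in 300 bases around each start and was found in SNHG7 alone among the 8, against 7.26% of all. The GAS5 window in the table belongs to only 1 of its annotated starts.

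In the GRCh37 annotation, SNHG7 lies at chr9:139615818-139622636, SNHG15 at chr7:45022618-45026560, SNHG12 at chr1:28905050-28909644, GAS5 at chr1:173827697-173838020 and SNHG1 at chr11:62619450-62623425, all on the minus strand. SNHG3, at chr1:28832492-28837404, and SNHG16, at chr17:74553809-74667067, are on the plus strand. Exons of 7 members overlap those of another gene. They are GAS5 (GAS5-AS1 among them), SNHG6 (MCMDC2), SNHG7 (DIPK1B), SNHG8 (PRSS12) and SNHG12 (TRNAU1AP) on opposite strands, and SNHG3 (RCC1) and SNHG5 (PKMP3) on the same strand. Whether the counting used the strand is not given in the sources used here, so the counts of these 7 are uncertain. SNHG1, SNHG15 and SNHG16 have no overlap of exons with another gene of the count table in the annotation used here. Small RNA genes were left out of this search, and the annotation used for counting may differ.

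Total counts per sample ranged from 27802871 to 38877420. Mitochondrially encoded genes took 5.31% to 6.28% of counts in untreated cells, 6.89% to 7.42% with GO-Rg3, 12.1% to 24.1% with GO and 12.8% to 19.4% with GO-Rg3-DOX, and replicate 1 was highest in the last 2 groups. The hepatocyte markers ALB, AFP, APOA1, APOB, TTR, SERPINA1 and HNF4A were all expressed, with a summed level of 20646 to 20838 CPM (counts scaled to a common library size) in untreated cells. It was 12615 to 15539 CPM with GO, 15788 to 19163 CPM with GO-Rg3 and 26459 to 31474 CPM with GO-Rg3-DOX. Of the 7, 1 was lower and 5 were higher with GO-Rg3-DOX, 2 were lower and 1 was higher with GO, and 1 was lower and 1 was higher between GO-Rg3 and GO. The shares of all genes tested, lower and higher, were 30.5% and 25.5%, 15.4% and 12.1%, and 6.25% and 7.33% in these comparisons. With GO-Rg3, 0 passed the test of edgeR or DESeq2 and 2 had an unadjusted p below 0.05. Among the 5 markers of other cell types, PECAM1 was at 0 counts in all samples, PTPRC reached at most 2 counts, VWF at most 4, COL1A1 at most 22 and COL3A1 at most 72. Their summed level was 1.04 to 1.15 CPM in untreated cells, 0.822 to 1.42 CPM with GO, 1.06 to 1.42 CPM with GO-Rg3 and 2.44 to 3.49 CPM with GO-Rg3-DOX, where both collagen genes were higher, and their part in the results was not tested.

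Levels are given as CPM scaled by the trimmed mean of M-values (TMM). They are shares of the RNA sequenced and measure neither the number of cells nor the RNA per cell. A lower share cannot be told apart from a rise in other RNAs. Fold changes are on the log2 scale with their standard error (SE), from the quasi-likelihood test of edgeR, and p-values were adjusted by Benjamini-Hochberg over all 17092 genes. A gene is said to have changed when its adjusted p was below 0.01, and is called when its absolute log2 fold change also exceeded 1. Shares of all genes are given for these rules in the main fit and for samples without overlap. Counts at an unadjusted p below 0.05, from DESeq2 or under other settings are given without such shares. Those counts cannot be set against all genes and are no result about the members or lists.

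**Figure D1:**
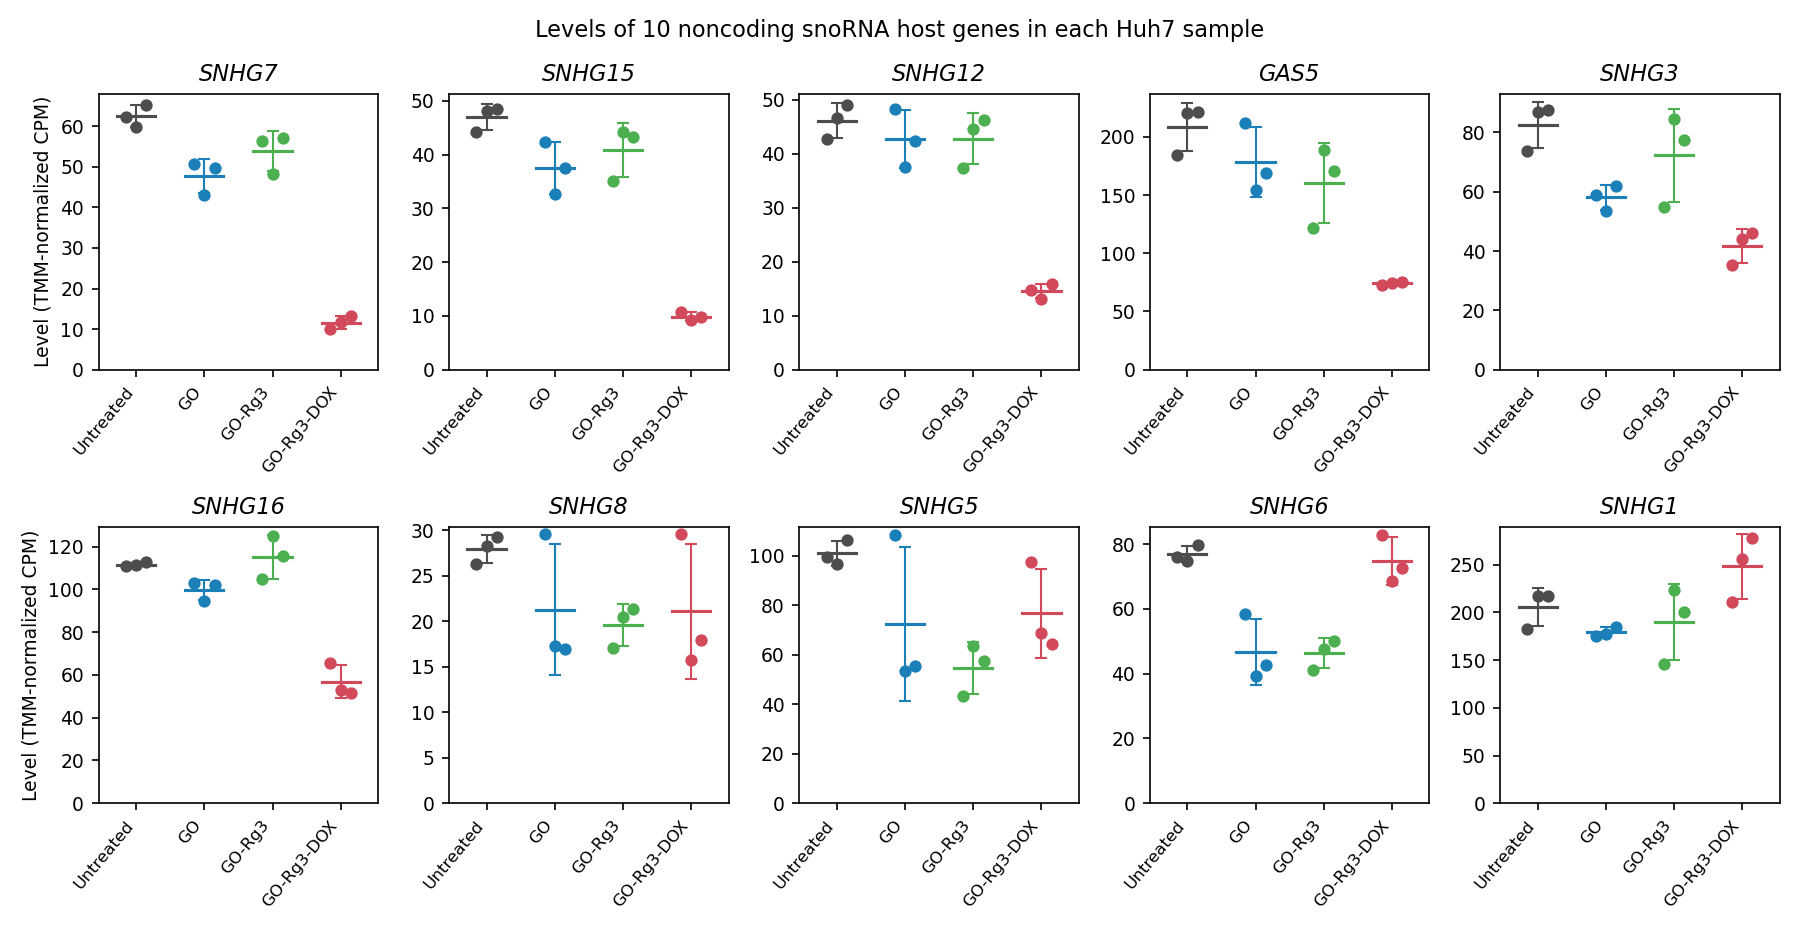
Level of each host gene (TMM-normalized CPM, axes from 0) in every sample of the 4 groups; points are samples, horizontal lines are means and bars are the SD of 3 samples. The GO-Rg3-DOX samples of SNHG7, SNHG15, SNHG12, GAS5, SNHG3 and SNHG16 lie below all untreated samples. Those of SNHG1, SNHG5, SNHG6 and SNHG8 overlap the untreated samples.

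With GO-Rg3-DOX the host genes split. SNHG7, SNHG15, SNHG12, GAS5, SNHG3 and SNHG16 fell, to between 18.6% and 50.8% of the untreated level, while SNHG1, SNHG5, SNHG6 and SNHG8 did not pass the test. In all, 6 of 10 members were lower and 0 were higher, where 30.5% of all genes tested were lower and 25.5% were higher. Of the 6, 4 were called lower, against 18.2% of all genes. The median log2 fold change of the 10 members was -0.98, beside -0.06 over all genes tested. Because the members were chosen with earlier results of these data known, these contrasts with all genes are descriptive. The samples of 6 members lay below all untreated samples, as did those of 40.3% of all genes. DESeq2's Wald test also had 6 members past the threshold.

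Among the box H/ACA hosts, SNHG7 fell most. Its untreated samples measured 62.3, 59.8 and 65.3 CPM and its GO-Rg3-DOX samples 9.93, 11.7 and 13.2 CPM. The groups were far apart, with the highest GO-Rg3-DOX sample well under the lowest untreated one. The mean was 5.39-fold lower in the fit, a log2 fold change of -2.43 (SE 0.12, adjusted p = 4.5e-10).

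SNHG15 followed closely. Untreated samples held 44.2, 48.2 and 48.5 CPM, and GO-Rg3-DOX samples 10.7, 9.2 and 9.72 CPM, again without overlap. This was a log2 fold change of -2.25 (SE 0.13, adjusted p = 1.24e-09), with a level 21.0% of that in untreated cells. The 95% intervals of the log2 fold changes of SNHG7 (-2.69 to -2.17) and SNHG15 (-2.52 to -1.98) overlapped.

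SNHG3, host of the U17 snoRNAs, fell by a smaller step. It measured 73.6, 86.8 and 87.4 CPM in untreated samples and 35.3, 44.1 and 46.1 CPM with GO-Rg3-DOX. Every treated sample was below every untreated one, and the log2 fold change was -0.98 (SE 0.15, adjusted p = 3.22e-05), just short of a call. Its exons overlap those of RCC1 on the same strand.

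SNHG8, the remaining box H/ACA host, did not pass the test. Untreated samples held 26.3, 28.2 and 29.3 CPM, and GO-Rg3-DOX samples 29.5, 15.7 and 17.9 CPM. Replicate 1 was the highest of all 6 samples and the other 2 were below the untreated range. In the fit its log2 fold change was -0.41 (95% interval -0.89 to 0.07, adjusted p = 0.121). Without GO-Rg3-DOX replicate 1, it was -0.71 (adjusted p = 0.00969).

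SNHG12, which hosts both kinds of snoRNA, fell from 42.7, 46.6 and 49.1 CPM to 14.7, 13.2 and 15.8 CPM. The treated samples were close together and all below the untreated ones. The fit gave a log2 fold change of -1.66 (SE 0.12, adjusted p = 2.09e-08).

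Among the box C/D hosts, GAS5 and SNHG16 fell and SNHG1, SNHG5 and SNHG6 did not pass the test. GAS5 measured 184, 220.2 and 221 CPM in untreated samples and 72.8, 74.5 and 75.2 CPM with GO-Rg3-DOX. The 3 treated samples were nearly equal and stood apart from the untreated ones. The log2 fold change of GAS5 was -1.49 (SE 0.15, adjusted p = 5.5e-07), 35.6% of the untreated level. An offset for the GC content of each transcript brought it to -0.96 (adjusted p = 3.13e-05), short of a call.

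SNHG16 went from 110.7, 111.3 and 112.6 CPM to 65.5, 52.9 and 51.7 CPM, without overlap. Its log2 fold change was -0.98 (SE 0.10, adjusted p = 9.8e-07), as in SNHG3 just short of a call.

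SNHG1 was the only member above its untreated level on average. Its untreated samples measured 183, 217 and 218 CPM and its GO-Rg3-DOX samples 211, 256 and 278 CPM, with overlap between the groups. The log2 fold change was 0.27 (95% interval -0.03 to 0.57, adjusted p = 0.104), and it turned to -0.14 when counts were scaled by library totals alone and was 0.66 (adjusted p = 3.79e-05) with the GC offset. Scaling by library totals alone also moved the median of all genes, to -0.47. SNHG1 therefore stood above that median under both scalings.

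SNHG6 differed little between the groups. Its untreated samples held 75.9, 74.9 and 79.6 CPM and its GO-Rg3-DOX samples 82.9, 68.7 and 72.5 CPM, on both sides of the untreated range. Its log2 fold change was -0.04 (95% interval -0.33 to 0.25, adjusted p = 0.806), and it was 0.03 with RLE scaling and 0.44 with the GC offset.

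SNHG5 held 99.6, 96.8 and 106 CPM in untreated samples and 97.3, 68.6 and 64.3 CPM with GO-Rg3-DOX. Replicate 1 was within the untreated range and the other 2 were below it. Its log2 fold change was -0.40 (95% interval -0.89 to 0.10, adjusted p = 0.143), and 0.09 with the GC offset.

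**Figure D2:**
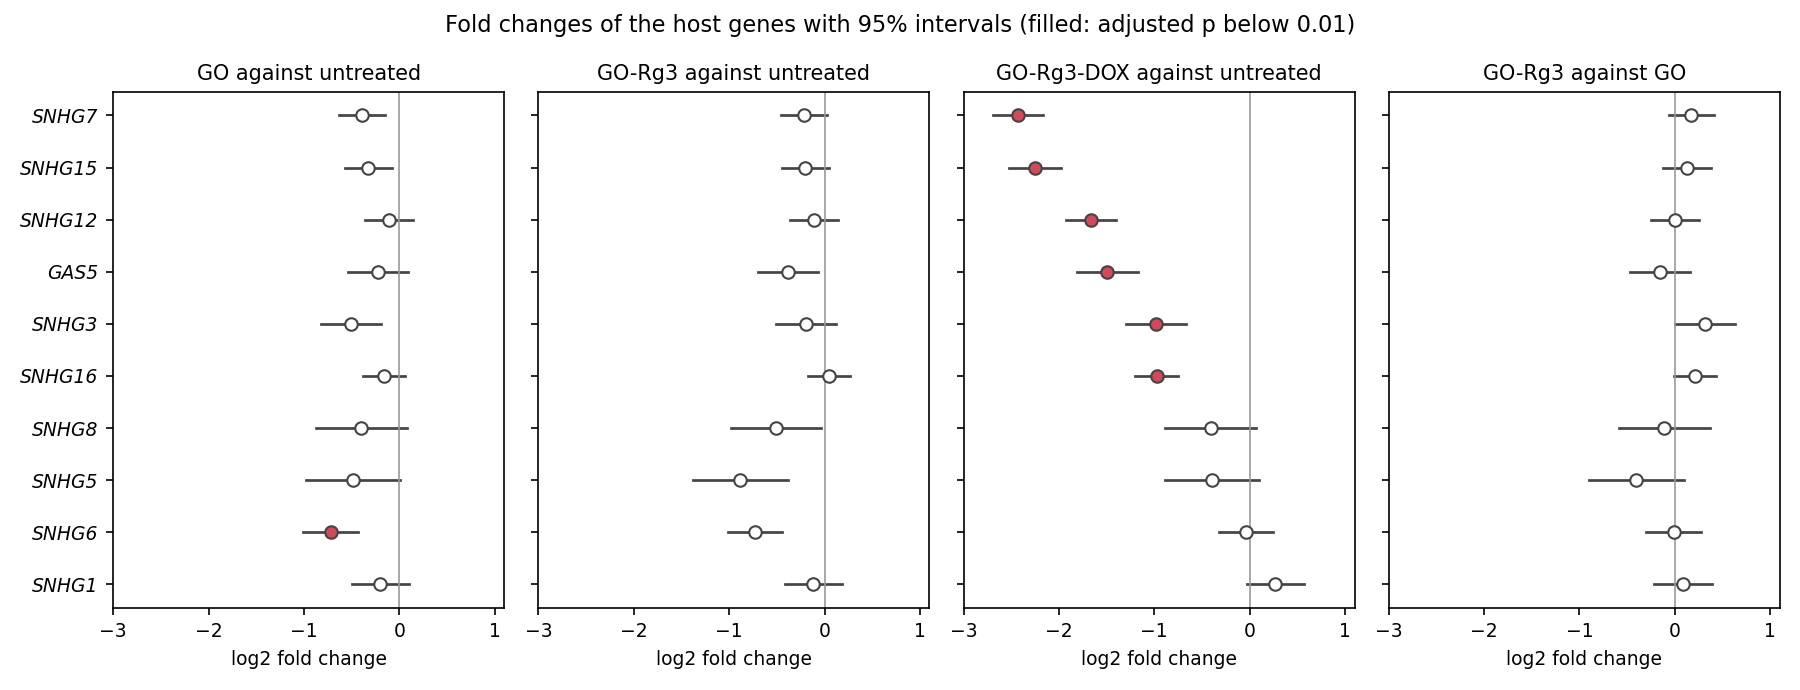
Log2 fold change of each host gene (x axis) in the 4 comparisons, with 95% intervals from edgeR's fit; filled points have an adjusted p below 0.01. With GO-Rg3-DOX 6 members are filled, from -2.43 for SNHG7 to -0.98 for SNHG16, with GO only SNHG6 is filled, and in the other 2 panels none is. The small values of SNHG1 and SNHG6 with GO-Rg3-DOX change sign under other scalings, and those of SNHG5, SNHG6 and SNHG8 do so with the GC offset.

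GO alone moved the members far less. All 10 log2 fold changes against untreated cells were below 0, although those of GAS5 and SNHG1 turned to 0.13 and 0.02 with the GC offset, and only SNHG6 passed the test. That was 1 of 10 members lower, where 15.4% of all genes were lower, and 0 higher, where 12.1% were. The samples of 5 members (SNHG3, SNHG6, SNHG7, SNHG15 and SNHG16) lay below all untreated samples, against 29.9% of all genes. The median log2 fold change of the members was -0.36, beside 0.01 over all genes. With edgeR's quasi-likelihood test 4 members had an unadjusted p below 0.05, and DESeq2's Wald test had 3 past the threshold. The shares of all genes for these counts are not given here.

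SNHG6 measured 58.4, 39.2 and 42.6 CPM with GO, all below the untreated samples. The log2 fold change was -0.72 (SE 0.14, adjusted p = 0.00073), and -0.41 (adjusted p = 0.0423) with the GC offset, which ended the call of a change. SNHG3 held 58.9, 53.6 and 61.9 CPM with GO, also below every untreated sample. Its log2 fold change of -0.51 (adjusted p = 0.0122) missed the threshold.

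SNHG7, at 50.8, 42.96 and 49.6 CPM with GO, was below the untreated samples as well. Its log2 fold change was -0.39 (adjusted p = 0.0125), and -0.84 (adjusted p = 0.000107) with the GC offset. SNHG15 held 42.3, 32.7 and 37.6 CPM, a log2 fold change of -0.32 (adjusted p = 0.0365). The values of SNHG16 were 103.1, 94.4 and 101.8 CPM (log2 fold change -0.16, adjusted p = 0.222).

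In GAS5, SNHG5, SNHG8 and SNHG12, the GO samples overlapped the untreated range through replicate 1, and replicates 2 and 3 lay below it. GAS5 held 212, 155 and 169 CPM with GO, SNHG5 108, 53.5 and 55.5 CPM, SNHG8 29.5, 17.3 and 16.98 CPM, and SNHG12 48.3, 37.6 and 42.4 CPM. Their log2 fold changes were -0.22, -0.48, -0.40 and -0.11, with adjusted p of 0.238, 0.106, 0.163 and 0.47 from edgeR's quasi-likelihood test. Without GO replicate 1, SNHG5 had a log2 fold change of -0.89 (adjusted p = 0.000999). The count of members past the test then rose from 1 to 3. It also rose to 3 without GO-Rg3 replicate 2 and to 2 without GO-Rg3 replicate 1 or GO-Rg3-DOX replicate 1. None of those samples belongs to the groups compared, and leaving them out changes the spread, the scaling and the genes tested.

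GO replicate 1 was the library with the highest mitochondrial share, 24.1% of counts, against 12.1% and 14.8% in the other 2 GO libraries. In GO-Rg3-DOX, replicate 1 was likewise highest, at 19.4%, and in both groups it had the highest level of 5 members, SNHG5, SNHG6, SNHG8, SNHG15 and SNHG16. In SNHG1 it had the lowest level in both groups. The part of the mitochondrial share in these levels was not tested.

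SNHG1 held 175, 178 and 185 CPM with GO, a narrow range that met the lowest untreated sample. Its log2 fold change was -0.20 (adjusted p = 0.272).

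In GO-Rg3-treated cells, 0 of 10 members passed edgeR's quasi-likelihood test against untreated cells, where 0.105% of all genes were lower and 0.0585% were higher. At an unadjusted p below 0.05 there were 4 members, and DESeq2's Wald test had 1 past the threshold, without shares of all genes to set them against. The median log2 fold change of the members was -0.21, beside -0.00 over all genes. The samples of SNHG5, SNHG6, SNHG7, SNHG8 and SNHG15, 5 members, lay below all untreated samples, against 16.6% of all genes.

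SNHG5 measured 43.3, 63.6 and 57.3 CPM with GO-Rg3, all below its untreated samples. This gave a log2 fold change of -0.88 (95% interval -1.38 to -0.39, adjusted p = 0.0757). SNHG6 measured 41.1, 47.7 and 50.2 CPM, also apart from its untreated samples, with a log2 fold change of -0.73 (95% interval -1.02 to -0.44, adjusted p = 0.0193). Without GO replicate 1, which is in neither group compared, both passed the test, with adjusted p of 0.00385 for SNHG5 and 0.00089 for SNHG6, and the count of members rose from 0 to 2. The values of SNHG8 were 17.003, 20.5 and 21.4 CPM, a log2 fold change of -0.51 (adjusted p = 0.33).

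GAS5 held 122, 188 and 171 CPM with GO-Rg3, with replicate 1 far below the other 2 and replicate 2 above the lowest untreated sample. The fitted difference was -0.38 on the log2 scale (adjusted p = 0.256). SNHG1 (146, 223 and 201 CPM) and SNHG3 (54.7, 84.4 and 77.6 CPM) were spread in the same manner, with log2 fold changes of -0.12 and -0.19. GO-Rg3 replicate 1 was the lowest of all GO-Rg3 and untreated samples in 9 of the 10 members, all but SNHG7. The summed level of the 10 was 657 CPM in that library, against 890 and 841 CPM in the other 2 GO-Rg3 libraries.

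SNHG7 (56.4, 48.2 and 57.2 CPM), SNHG15 (35.2, 44.2 and 43.4 CPM) and SNHG12 (37.5, 44.7 and 46.2 CPM), which fell most with GO-Rg3-DOX, had log2 fold changes of -0.21, -0.20 and -0.11 with GO-Rg3. SNHG16, at 104.7, 125.01 and 115.7 CPM, had a log2 fold change of 0.05, which turned to -0.02 without GO-Rg3 replicate 2. All 3 comparisons with untreated cells share the untreated samples.

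Between GO-Rg3 and GO, given at the same dose, 0 of 10 members passed edgeR's quasi-likelihood test. By that test 6.25% of all genes were lower and 7.33% were higher in GO-Rg3. Of the members, 0 had an unadjusted p below 0.05 in edgeR's test, and DESeq2's Wald test had 0 past the threshold. The nearest was SNHG3, with a log2 fold change of 0.31 (95% interval -0.00 to 0.63, adjusted p = 0.126). Without GO-Rg3 replicate 1 it was 0.48 (adjusted p = 0.00965), and the count of members past the test rose from 0 to 1. The GC offset likewise gave 1 member, SNHG7, at 0.55 (adjusted p = 0.00531) in place of 0.17. The samples of SNHG16 were all higher with GO-Rg3 than with GO, as were those of 20.1% of all genes, with a log2 fold change of 0.21 (adjusted p = 0.15). For GAS5 the log2 fold change was -0.16 (95% interval -0.47 to 0.16), and for SNHG6 it was -0.01 (95% interval -0.30 to 0.28).

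The share of each member in the summed counts does not depend on the scaling between libraries, but the summed level in CPM does. The 10 members together held 903 to 1016 CPM in untreated cells, 703 to 887 with GO, 657 to 890 with GO-Rg3 and 614 to 645 with GO-Rg3-DOX. SNHG1 supplied 21.2% ± 0.85 of their summed counts in untreated cells and 39.4% ± 5.22 with GO-Rg3-DOX (SD, n = 3). The share of GAS5 was 21.5% ± 0.94 and 11.8% ± 0.30, and that of SNHG7 was 6.46% ± 0.43 and 1.84% ± 0.24 in the same groups (SD, n = 3). With GO and GO-Rg3, SNHG1 had a share of 23.1% ± 2.93 and 23.7% ± 1.46 (SD, n = 3).

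The ratio of SNHG1 counts to GAS5 counts was 0.991, 0.985 and 0.985 in the untreated samples and 2.89, 3.43 and 3.70 with GO-Rg3-DOX. It was 0.825, 1.15 and 1.09 with GO and 1.20, 1.18 and 1.17 with GO-Rg3. All GO-Rg3-DOX samples stood above the other 9 samples. This ratio restates the levels of SNHG1 and GAS5 given above and is no separate support. How many other gene pairs differ as far was not tested.

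**Figure D3:**
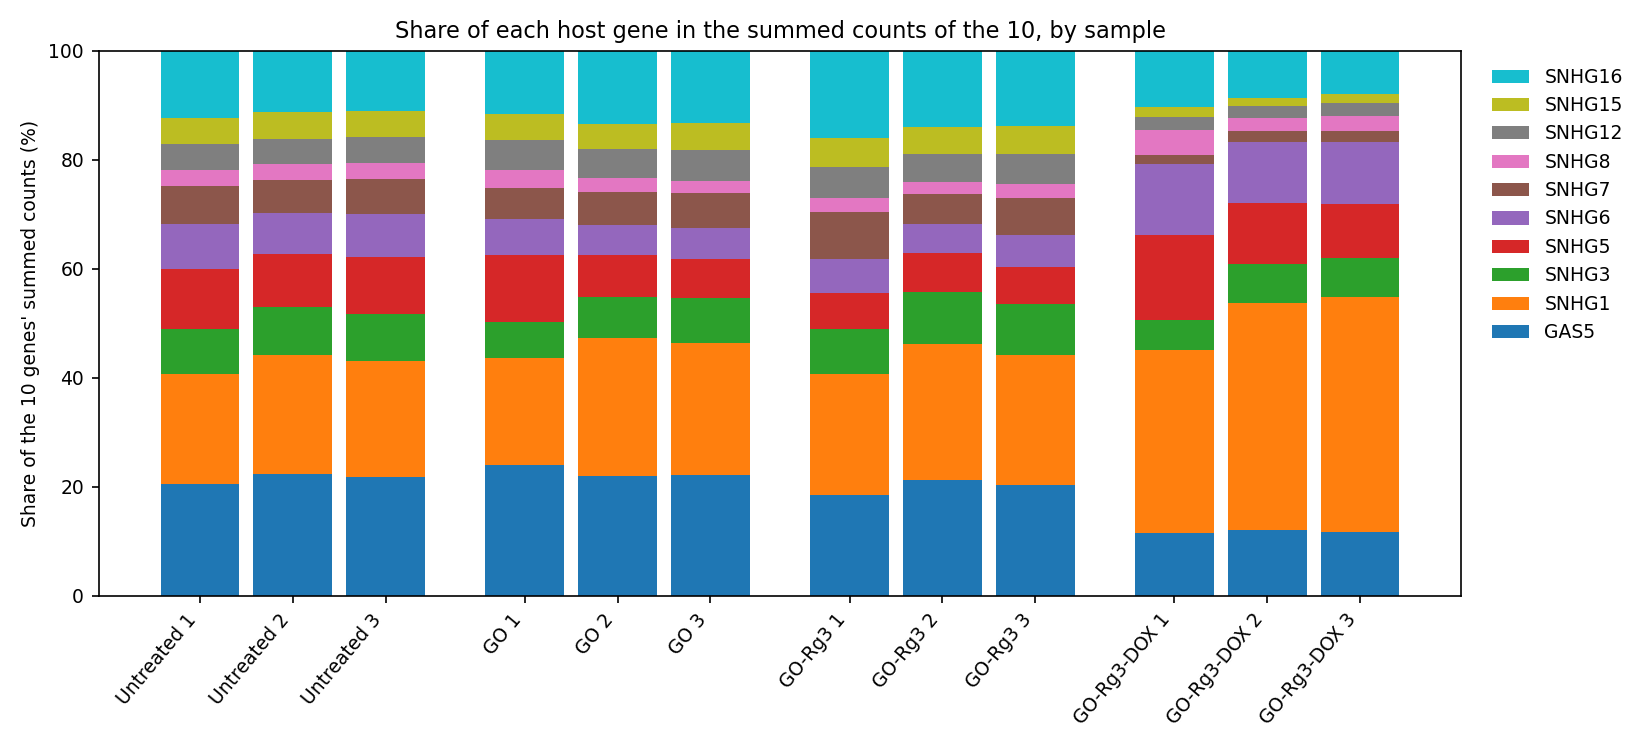
Share of each host gene in the summed counts of the 10 (y axis, percent) in each of the 12 samples; counts are not divided by transcript length, so bar segments compare samples and not genes. In the GO-Rg3-DOX samples SNHG1 takes 33.5% to 43.2%, where GAS5, SNHG7, SNHG12 and SNHG15 are narrower than in the untreated samples.

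The libraries were made from polyadenylated RNA. The table has rows for SNORD78 in GAS5, SNORA73B in SNHG3, SNORD99 in SNHG12 and SNORD1B in SNHG16, matched by identifier. Of 34 snoRNA names listed for the members, 22 were in the table and 3 could be tested as rows with a unique symbol. All 3 were lower with GO-Rg3-DOX, as were 30.5% of all genes, while 0 passed edgeR's quasi-likelihood test in the other 3 comparisons. In those 3, 1 of the snoRNAs had an unadjusted p below 0.05 with GO, 0 with GO-Rg3 and 1 between GO-Rg3 and GO, and DESeq2's Wald test had 0 past the threshold. SNORA73B went from 3.603 ± 0.44 to 1.06 ± 0.05 CPM (SD, n = 3), a log2 fold change of -1.76 (SE 0.24, adjusted p = 9.79e-06). SNORD99 and SNORD1B had log2 fold changes of -0.82 and -1.98 (adjusted p = 0.0044 and 0.00805), and DESeq2's Wald test kept 1 of the 3 with GO-Rg3-DOX. SNORD1B had at most 21 counts in a sample. Whether such reads come from the snoRNA or from unspliced host RNA cannot be told apart.

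Other noncoding hosts were read from a list of 13, of which 7 were tested. With GO-Rg3-DOX, 2 of the 7 were lower and 1 was higher, beside 30.5% and 25.5% of all genes. EPB41L4A-AS1 fell from 6.71 ± 0.60 to 2.38 ± 0.27 CPM and SNHG17 from 35.6 ± 2.76 to 16.01 ± 0.81 CPM (SD, n = 3), log2 fold changes of -1.50 and -1.15. DANCR rose from 338 ± 9.15 to 508 ± 62.7 CPM (SD, n = 3), a log2 fold change of 0.59. In the other 3 comparisons 0 of the 7 passed edgeR's quasi-likelihood test or DESeq2's, with 3, 3 and 1 at an unadjusted p below 0.05 for GO, GO-Rg3 and GO-Rg3 against GO.

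The protein-coding hosts, 42 genes that are largely ribosomal proteins and translation factors, were tested as a list. With GO, 18 of 42 were lower and 0 higher, with a median of -0.45, where 15.4% of all genes were lower and 12.1% were higher. RPL5, a ribosomal protein of the large subunit, fell from 865 ± 12.9 to 469 ± 107 CPM (SD, n = 3), a log2 fold change of -0.88. With GO-Rg3-DOX, 8 of 42 were lower and 11 higher, with a median of 0.08, where 30.5% of all genes were lower and 25.5% were higher. WDR43, a ribosome biogenesis factor, fell from 96.1 ± 2.51 to 18.7 ± 2.84 CPM (SD, n = 3), a log2 fold change of -2.36, and EIF4A1, a translation initiation helicase that shares exons with a readthrough transcript of SENP3 and is therefore uncertain, had -2.09. The elongation factor EEF2 rose by 1.07 on the log2 scale. Ribosomal protein genes have many processed copies, so their counts are uncertain.

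With GO-Rg3, 0 of the 42 passed edgeR's quasi-likelihood test, with 22 at an unadjusted p below 0.05 and 3 past DESeq2's threshold. Between GO-Rg3 and GO, 6 were higher with GO-Rg3 and 0 were lower, where 7.33% of all genes were higher and 6.25% were lower. WDR43 (log2 fold change 0.94) and the chaperone HSPA8 (0.55) had the largest rises.

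The proteins that bind snoRNAs, 8 genes of the box C/D and box H/ACA particles, had 4 lower and 1 higher with GO. Over all genes, 15.4% were lower and 12.1% were higher. NOP56 and NOP58, core proteins of the box C/D particle, fell by 0.69 and 0.68 on the log2 scale, and GAR1, of the box H/ACA particle, rose by 0.63. Between GO-Rg3 and GO, 3 were higher with GO-Rg3, among them NOP58 (0.53) and NOP56 (0.49), where 7.33% of all genes were higher. With GO-Rg3-DOX, only FBL, the box C/D methyltransferase fibrillarin, passed the test, and it rose by 0.73, where 25.5% of all genes were higher. With GO-Rg3, 0 of 8 passed edgeR's quasi-likelihood test or DESeq2's, and 3 had an unadjusted p below 0.05.

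Of 10 NMD factors, 3 were lower and 1 was higher with GO-Rg3-DOX, beside the same 30.5% and 25.5% of all genes, while the other 6, including the helicase UPF1 (199 ± 15.98 to 243 ± 20.8 CPM, SD, n = 3, log2 fold change 0.29, adjusted p = 0.0879), did not pass the test. SMG8 (log2 fold change -1.26) and SMG9 (-1.07), regulators of the UPF1 kinase SMG1, had the largest falls, and SMG5, an adaptor for decay of UPF1 targets, rose (0.60). With GO, 1 was lower and 2 were higher, among them the endonuclease SMG6 (0.53), and SMG8 (-0.53) fell. Over all genes, 15.4% were lower and 12.1% were higher with GO. In GO-Rg3-treated cells and between GO-Rg3 and GO, 0 of 10 passed edgeR's quasi-likelihood test or DESeq2's, with 1 and 4 at an unadjusted p below 0.05.

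The exon junction complex binds spliced RNA and takes part in NMD. Of its 5 genes, 1 was lower and 2 were higher with GO-Rg3-DOX. Over all genes, 30.5% were lower and 25.5% were higher. CASC3 had a log2 fold change of -0.34, and RBM8A and MAGOH had 0.61 and 0.50. With GO, EIF4A3 fell (-0.52) and CASC3 rose (0.46), where 15.4% of all genes were lower and 12.1% were higher. In GO-Rg3-treated cells and between GO-Rg3 and GO, 0 of 5 passed edgeR's quasi-likelihood test, with 2 and 3 at an unadjusted p below 0.05 and 0 and 2 past DESeq2's threshold.

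Of 6 protein-coding transcripts known as NMD targets, 3 were lower and 2 higher with GO-Rg3-DOX, beside 30.5% and 25.5% of all genes. ATF4, a stress-response transcription factor, fell from 359 ± 9.94 to 112 ± 7.92 CPM (SD, n = 3), a log2 fold change of -1.68, and the kinase MAP3K14 had -0.97. GADD45B, a growth arrest and DNA damage gene, rose from 17.7 ± 1.84 to 64.9 ± 5.89 CPM (SD, n = 3), a log2 fold change of 1.87, and UPP1, uridine phosphorylase, rose by 0.44. With GO, UPP1 (0.46) and TBL2 (0.45) rose and 0 were lower, beside 12.1% of all genes higher and 15.4% lower. In GO-Rg3-treated cells and between GO-Rg3 and GO, 0 of 6 passed edgeR's quasi-likelihood test, with 0 and 2 at an unadjusted p below 0.05 and 0 and 1 past DESeq2's threshold.

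**Figure D4:**
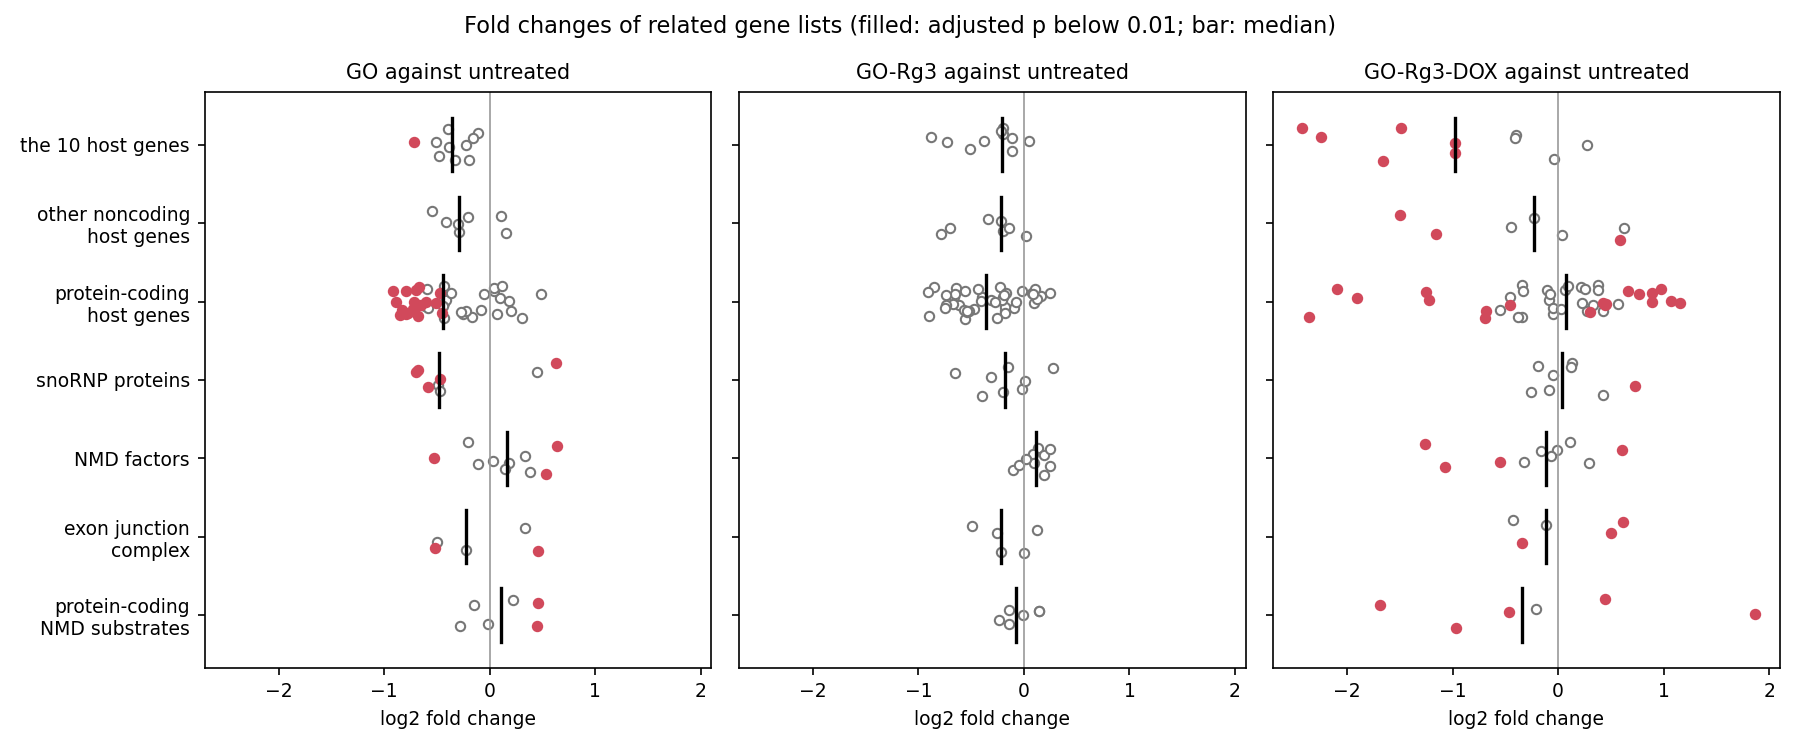
Log2 fold change (x axis) of each tested gene in the host genes and 6 related lists, in 3 comparisons that share the untreated samples; filled points have an adjusted p below 0.01 and bars are list medians. The 10 host genes have medians of -0.98 with GO-Rg3-DOX, -0.21 with GO-Rg3 and -0.36 with GO, and the protein-coding hosts have 0.08, -0.35 and -0.45.

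The genes whose pattern over the 12 samples was most like that of GAS5 were found among 8960 genes with a mean of at least 10 CPM. The measure was the root mean square difference of log2 CPM, each gene taken relative to its own untreated mean. The nearest were EBAG9 (0.173), COA5 (0.185), C9orf156 (0.185), UBE2B (0.186) and TACO1 (0.199), where the median gene differed by 0.794. Among the members SNHG12 was nearest to GAS5, at 0.204 and rank 8, followed by SNHG3 at 0.321 (rank 261) and SNHG16 at 0.369 (rank 634). SNHG1, at 0.895, was farther from GAS5 than the median gene.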

How the data were processed

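The authors made stranded mRNA libraries and, per the labels, counted reads per gene with featureCounts on GRCh37. The annotation release and strand option are not given in the sources used here. The deposited values are raw counts for 63677 genes in 12 samples, without normalization.

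A gene needed 10 or more counts in 3 or more samples, which left 17092. Counts were scaled by TMM and tested with edgeR 4.0.16 in R 4.3.3 (quasi-likelihood, all 12 samples in 1 fit, no replicate block), with Benjamini-Hochberg adjustment over all genes in each of 4 comparisons. DESeq2 1.42.0 was an alternative. The threshold was an adjusted p of 0.01, with an absolute log2 fold change above 1 for a call. The procedure was tested on simulated data. Replicates of a group differed by 2.85 to 144 times the counting noise (chi-square per degree of freedom), so none was counted as 1 library deposited again. This does not show separate cultures.

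The members and lists were chosen with earlier results of these data known. All members are named in each comparison. From each related list the 2 largest rises and 2 largest falls past the test are named, and the 5 genes most like GAS5. Some items under this rule are not reported here. SNHG4, SNHG20 and C17orf76-AS1 were not analysed here. For symbols with several rows, the row with the most counts was used. Positions, exon overlaps and GC content came from GENCODE 44 lifted to GRCh37, with GC values for 97.3% of genes tested, and start regions from RefSeq (GRCh38.p14).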

Additional observations from a re-analysis of the deposited data

How the results depend on the processing

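With GO-Rg3-DOX, 6 to 9 members passed the test under every alternative and 3 to 6 were called. The share of all genes past the test under each alternative is not given here. These counts, and those below for the other comparisons, cannot be set against all genes. The 9 came with library totals alone, and the 6 with library totals alone or without the filter. Library totals alone moved the median of all genes to -0.47 with GO-Rg3-DOX, -0.11 with GO and 0.12 between GO-Rg3 and GO. The 3 came with the GC content offset. With that offset SNHG1, and with the block also SNHG6, passed the test as higher. Of 920 results for single members under the alternatives, 837 kept their direction and side of the threshold, 43 came to pass the test, 2 no longer passed and 38 changed sign. The cause of these changes was not tested.

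With GO, the count of members past the test was 1. It was 3 with library totals alone, DESeq2, the replicate block or only the 6 samples compared, 2 with the GC offset with or without the block, and 4 without the filter or at an adjusted p of 0.05. Leaving out 1 sample gave 1 to 3. With GO-Rg3 the count was 0. It was 1 with DESeq2, the replicate block, only the 6 samples or an adjusted p of 0.05, 2 without the filter, and 0 to 2 with 1 sample left out. Between GO-Rg3 and GO it was 0, with 1 under the GC offset with or without the block and 0 to 1 with 1 sample left out. Without the share of all genes in each setting, a higher count is no result about the members.

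The replicate block rests on shared numbers only. Over 18 same-numbered pairs the deviations correlated at -0.02 to 0.25 (mean 0.09), with 7 over 0.1, and 10 of 12 samples correlated best with their own number, a hint from the data and not the design.

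The following log2 fold changes changed sign. With GO-Rg3-DOX, SNHG6 was 0.032 with RLE scaling, 0.032 with DESeq2, 0.00024 with only the 6 samples, 0.44 with the GC offset, 0.43 with offset and block and -0.11 to 0.038 with 1 sample left out. SNHG1 was -0.14 with library totals. SNHG5 was 0.087 and 0.046, and SNHG8 0.14 and 0.078, with the GC offset without and with the block. With GO, GAS5 was 0.13 and 0.12, and SNHG1 0.023 and 0.031, under the same offsets. With GO-Rg3, leaving out 1 sample gave -0.25 to 0.043 for SNHG1 and -0.017 to 0.11 for SNHG16. Between GO-Rg3 and GO, library totals gave 0.0096 for GAS5, 0.16 for SNHG6 and 0.067 for SNHG8. SNHG6 was 0.0065 without mitochondrial genes, 0.011 without the filter and 0.0029 with the block. SNHG12 was -0.020 with at least 10 counts in every sample and -0.0031 with only the 6 samples. SNHG1 was -0.076 and -0.087 with the GC offset without and with the block. Leaving out 1 sample gave -0.29 to 0.0084 for GAS5, -0.049 to 0.24 for SNHG1, -0.58 to 0.0041 for SNHG5, -0.13 to 0.18 for SNHG6, -0.25 to 0.19 for SNHG8 and -0.085 to 0.097 for SNHG12.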
